A study of Mus musculus with 4 samples.

Results

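A set of 830 genomic tiles had a higher DNA methylation level in mature B cells than in haematopoietic stem and progenitor cells (HSPCs) by at least 25 percentage points, both in wild-type mice and in Sca1-BCL6Δ mice. A tile was a fixed window of 1 kb on the mouse mm9 assembly. Tiles on the 19 autosomes were eligible if each of the 4 libraries had at least 10 CpG readings there, counted over CpGs with under 50 reads in every library. A CpG reading is 1 read at 1 CpG, so a read that spans several CpGs is counted at each of them. The level of a tile is the percent of its readings that were methylated. The 830 gaining tiles were 0.883% of 94023 eligible tiles. The tiles were chosen by the B cell and HSPC levels of both genotypes in these same libraries, so the sizes of their gains are given as a description and without a test. Where 4 levels are listed in a row, wild-type comes first (HSPCs, then B cells) and Sca1-BCL6Δ second (HSPCs, then B cells).

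The 4 libraries came from reduced representation bisulfite sequencing (RRBS), in which DNA is digested with restriction enzymes (here MspI, which recognises CCGG, and TaqI, which recognises TCGA) and unmethylated cytosines are converted with bisulfite. HSPCs were Sca1+Lin- cells sorted from bone marrow, and B cells were B220+ cells sorted from peripheral blood. Donors were wild-type CBAxC57BL/6J mice or Sca1-BCL6Δ mice on that background, whose ages are not given in the sources used here. Sca1-BCL6Δ mice carry a mouse Bcl6 cDNA with an IRES-eGFP cassette between loxP sites, driven by the Sca1 (Ly6a) promoter. They also carry mb1-Cre, a Cre inserted in Cd79a, which removes the transgene in B lineage cells. Per the submitters' methods text, independent transgenic lines were made, and the lines that entered the pools are not named. Each library was made from DNA pooled from 6 to 9 mice, with 1 library per condition. No difference below can therefore be set against variation between animals, and every test compares the reads of libraries, not conditions. Neither the expression nor the deletion of the transgene was measured here.

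DNA methylation in mammals sits mainly on the cytosines of CpG pairs. It is set by the de novo enzymes Dnmt3a and Dnmt3b and copied at cell division by Dnmt1, while CpG-dense promoters mostly stay unmethylated. As progenitors commit to the B lineage, methylation is lost at many B cell enhancers and gained at some elements used by stem cells or other blood lineages. A single CpG on 1 DNA molecule is either methylated or not, so an intermediate level in a pool reflects a mixture of molecules.

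Sequence could be shown only where a covered CpG fell in a promoter sequence of RefSeq (GRCm38.p6, 250 bases before to 50 after a start site) that could be matched by the spacing of its covered CpGs. Readings from gaining tiles fell in 7 such promoter windows. The 3 printed here, chosen after their values were seen, are the windows with at least 25 readings in every library (Angptl8 and Gm33473) and the window with the most CpGs of a gaining tile (Acot12). Capitals mark the CpGs that had reads in the deposited tables.
Angptl8 promoter, chr9:21835260-21835559, plus strand: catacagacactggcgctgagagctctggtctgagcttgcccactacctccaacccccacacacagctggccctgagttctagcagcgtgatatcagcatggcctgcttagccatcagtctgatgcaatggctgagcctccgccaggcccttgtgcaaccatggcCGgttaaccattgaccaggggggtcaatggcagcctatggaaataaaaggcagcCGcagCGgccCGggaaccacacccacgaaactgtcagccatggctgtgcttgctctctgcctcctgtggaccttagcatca
Gm33473 promoter, chr14:121994230-121994529, plus strand: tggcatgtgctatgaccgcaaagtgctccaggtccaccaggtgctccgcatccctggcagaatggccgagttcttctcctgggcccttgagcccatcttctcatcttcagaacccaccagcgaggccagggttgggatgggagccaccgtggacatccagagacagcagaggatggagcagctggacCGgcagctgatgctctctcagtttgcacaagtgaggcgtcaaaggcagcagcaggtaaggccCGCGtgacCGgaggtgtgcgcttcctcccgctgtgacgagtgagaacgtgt
Acot12 promoter, chr13:91741271-91741570, plus strand: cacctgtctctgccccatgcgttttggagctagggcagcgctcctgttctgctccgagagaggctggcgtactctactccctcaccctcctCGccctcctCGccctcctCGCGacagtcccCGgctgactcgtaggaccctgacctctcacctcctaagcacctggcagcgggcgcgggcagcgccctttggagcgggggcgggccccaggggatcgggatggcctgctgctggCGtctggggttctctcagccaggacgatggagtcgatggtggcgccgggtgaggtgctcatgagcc

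Angptl8 encodes a circulating protein that restrains lipoprotein lipase. Its 4 capital CpGs were 73.8% methylated in HSPCs (42 readings) and 100% in B cells (54 readings) of wild-type mice, and 35.7% (28 readings) and 92.0% (25 readings) in those of Sca1-BCL6Δ mice. The same CpGs were thus nearly fully methylated in both B cell libraries from unequal HSPC levels. At the 4 capital CpGs of Gm33473, a gene for a long non-coding RNA, the levels were 55.8% in HSPCs and 100% in B cells for wild-type, and 68.0% and 96.3% for Sca1-BCL6Δ. Acot12 encodes a cytosolic acetyl-CoA hydrolase. At 5 of its 6 capital CpGs, those inside the gaining tile, levels were 19.6% in HSPCs and 42.4% in B cells for wild-type, and 16.7% and 55.6% for Sca1-BCL6Δ, the last from 9 readings. This window stayed partly unmethylated in B cells, unlike the Angptl8 and Gm33473 windows.

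The other 4 windows also had 9 or fewer readings in at least 1 library. In the window of Acp7, an acid phosphatase family gene, 4 CpGs had 14.3, 37.2, 27.8 and 55.6% methylation. Kcnip3, which encodes a calcium-binding protein, had 1 such CpG, with 50, 84.6, 66.7 and 100%. The 3 CpGs of the non-coding gene Gm46560 went from 0.0% (6 readings) to 57.7% (26 readings) in wild-type and from 33.3% (3 readings) to 88.9% (9 readings) in Sca1-BCL6Δ. The window of Mrpl3, a mitochondrial ribosomal protein gene, shared the gain of the tile around it in wild-type but not in Sca1-BCL6Δ. Its 4 CpGs were at 0.0% in HSPCs (20 readings) and 44.4% in B cells (36 readings) for wild-type. For Sca1-BCL6Δ they were at 44.4% (9 readings) and 8.33% (12 readings). The restriction site CCGG was present 2 times in each of the 3 printed sequences, and TCGA 1 time in that of Acot12. Both sites read the same on either strand and cannot overlap each other. CCGG was found in 53.5% and TCGA in 22.1% of 31396 promoter sequences of that length.

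Across the 830 gaining tiles, the median level in wild-type was 48.99% in HSPCs (10th to 90th percentile 22.0 to 66.7%) and 87.5% in B cells (59.4 to 100%). In Sca1-BCL6Δ it was 54.5% in HSPCs (21.4 to 71.5%) and 91.7% in B cells (63.6 to 100%). Over all eligible tiles the 4 medians were 68.4, 89.8, 86.7 and 90%. The gaining tiles thus had intermediate HSPC levels and B cell medians close to those of all tiles, as the plot of levels shows. Their B cell levels had no large low class, with a 25th percentile of 74.4% in wild-type against 24.3% over all eligible tiles, and 2.41% were under 50% in both B cell libraries against 29.6%. A tile that gains 25 percentage points must have a B cell level of at least 25%. The rule itself thus removed the lowest tiles, and the B cell shares here and below are not independent of it. In both HSPC libraries 734 of the 830 tiles (88.4%) lay between 20 and 80%, against 15.7% of all eligible tiles. The rule bears on that share, since a tile needs a level of at most 75% in HSPCs to gain 25 percentage points. Of 35638 eligible tiles with that room in both genotypes, 2.33% gained in both. In B cells 641 gaining tiles (77.2%) reached 70% in both genotypes, against 62.3% of eligible tiles. At 90% or more in both were 310 (37.3%, against 43.9%), and at 100% were 67 (8.07%, against 9.42%). Only 9 tiles went from under 20% in both HSPC libraries to 50% or more in both B cell libraries.

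**Figure D1:**
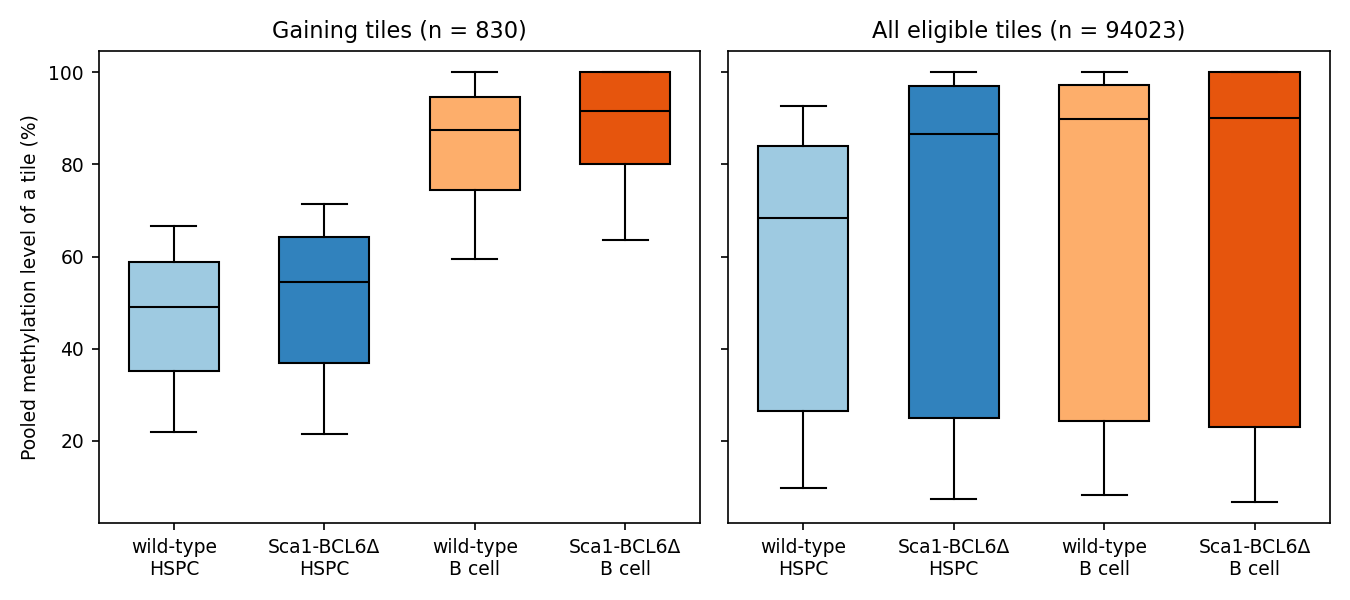
Methylation level of a tile (vertical axis, percent) in the 4 libraries, for the 830 gaining tiles and for all 94023 eligible tiles. Boxes span the 25th to 75th percentile with the median as a line, and whiskers reach the 10th and 90th percentiles. The gaining tiles have HSPC medians of 48.99 and 54.5% and B cell medians of 87.5 and 91.7%.

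The median gain was 33.7 percentage points in wild-type (range 25 to 84.6) and 32.6 in Sca1-BCL6Δ (25 to 91.7), and 90 tiles gained at least 40 percentage points in both. Over all eligible tiles the median difference was 8.30 in wild-type and 0.0 in Sca1-BCL6Δ. A gain of 25 percentage points was met by 15237 tiles in wild-type (16.2% of those eligible) and by 3155 in Sca1-BCL6Δ (3.36%). The 830 tiles that met both were 5.45% of the wild-type list and 26.3% of the Sca1-BCL6Δ list. A loss of that size in both genotypes was found for 274 tiles (0.291%). The wild-type HSPC library was lower than the Sca1-BCL6Δ HSPC library where B cells were methylated. Over 24764 tiles at 95% or more in both B cell libraries, its pooled level was 83.9% against 95.6%. Its part in the wild-type gains was not tested. When wild-type HSPC levels were divided by the ratio of those pooled levels, 490 tiles kept the gain in both genotypes. Over the 830 gaining tiles the Sca1-BCL6Δ gain minus the wild-type gain had a median of -0.59 percentage points, which became 6.12 after that rescaling.

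**Figure D2:**
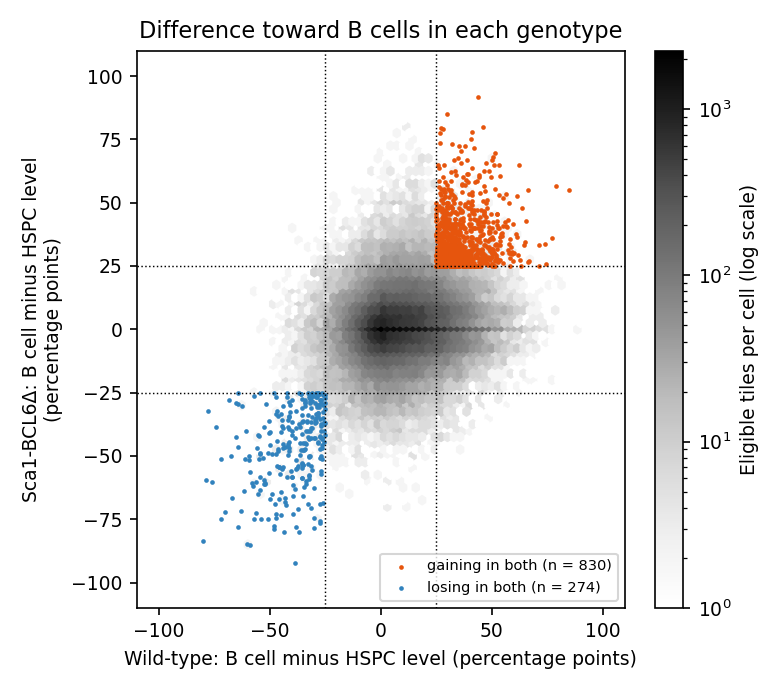
Difference between the B cell and HSPC level of each eligible tile in wild-type (horizontal axis) and Sca1-BCL6Δ mice (vertical axis), in percentage points. Grey cells give tile numbers on a log scale, dotted lines mark 25 percentage points, orange points are the 830 tiles gaining in both and blue points the 274 losing in both. Grey cells reach far past 25 on the wild-type axis at values near 0 in Sca1-BCL6Δ.

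Gaining tiles were covered thinly. They held a median of 3 covered CpGs, against 5 over all eligible tiles, and their shallowest library had a median of 13 readings, against 18. In 653 tiles (78.7%) that library had under 20 readings, against 53.9% of eligible tiles. The share of eligible tiles that gained in both was 1.43% at 10 to 14 readings in the shallowest library, 1.01% at 15 to 19, 0.784% at 20 to 29, 0.384% at 30 to 49 and 0.049% at 50 or more. It also went down with the number of covered CpGs, from 1.67% at 1 or 2 CpGs to 0.022% at 20 or more. The part of sampling error and of CpG density in these shares was not tested. The intervals given below for single tiles are 95% Wilson intervals, which cover counting error only. They take each reading as independent, although neighbouring CpGs share reads and no removal of PCR duplicates is recorded.

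**Figure D3:**
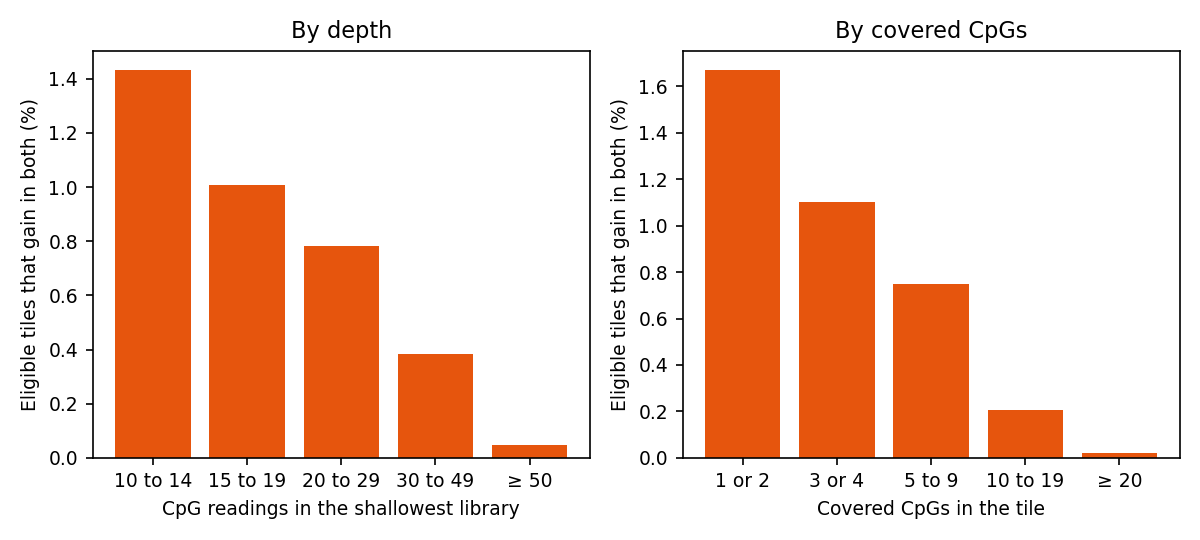
Share of eligible tiles that gained in both genotypes (vertical axes, percent), by the number of CpG readings in the shallowest library (left) and by the number of covered CpGs (right). The bars fall from 1.43% to 0.049% with depth and from 1.67% to 0.022% with covered CpGs.

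Single CpGs with more reads are described next, although their readings are among those that chose the tiles. Of the 3172 CpGs in gaining tiles, 170 (in 146 tiles) had at least 10 reads in all 4 libraries. Their median levels were 46.2, 83.3, 46.2 and 89.4%. Only 1 CpG of a gaining tile had been left out for 50 or more reads. It lies at chromosome 4, 55754129, and had 23.7, 11.5, 22.2 and 44.4% methylation, so it was lower in B cells in wild-type.

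Reads with several CpGs (2 or more) showed how the intermediate HSPC levels were made up. Among 6044 such reads of wild-type HSPCs in gaining tiles, 32.2% were methylated at every CpG, 44.3% at none and 23.4% were mixed. Sca1-BCL6Δ HSPCs had 34.5, 39.7 and 25.8% over 3970 reads. Intermediate levels in both HSPC libraries thus came mostly from reads that were either fully methylated or fully unmethylated. In B cells the fully methylated share was 70.5% in wild-type (9277 reads) and 78.6% in Sca1-BCL6Δ (4725 reads), and the fully unmethylated share was 10.5 and 6.52%. Over all eligible tiles the fully methylated share was 31.0 to 36.3% in the 4 libraries, and the mixed share was 17.1, 14.3, 11.3 and 11.5%. In 352 gaining tiles each library had at least 5 reads with several CpGs. Fully methylated and fully unmethylated reads occurred together in 314 of these tiles in HSPCs and 188 in B cells for wild-type, and in 297 and 103 for Sca1-BCL6Δ. The read shares follow from the same reads as the levels, and whether the 2 kinds of read came from different cells was not tested.

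**Figure D4:**
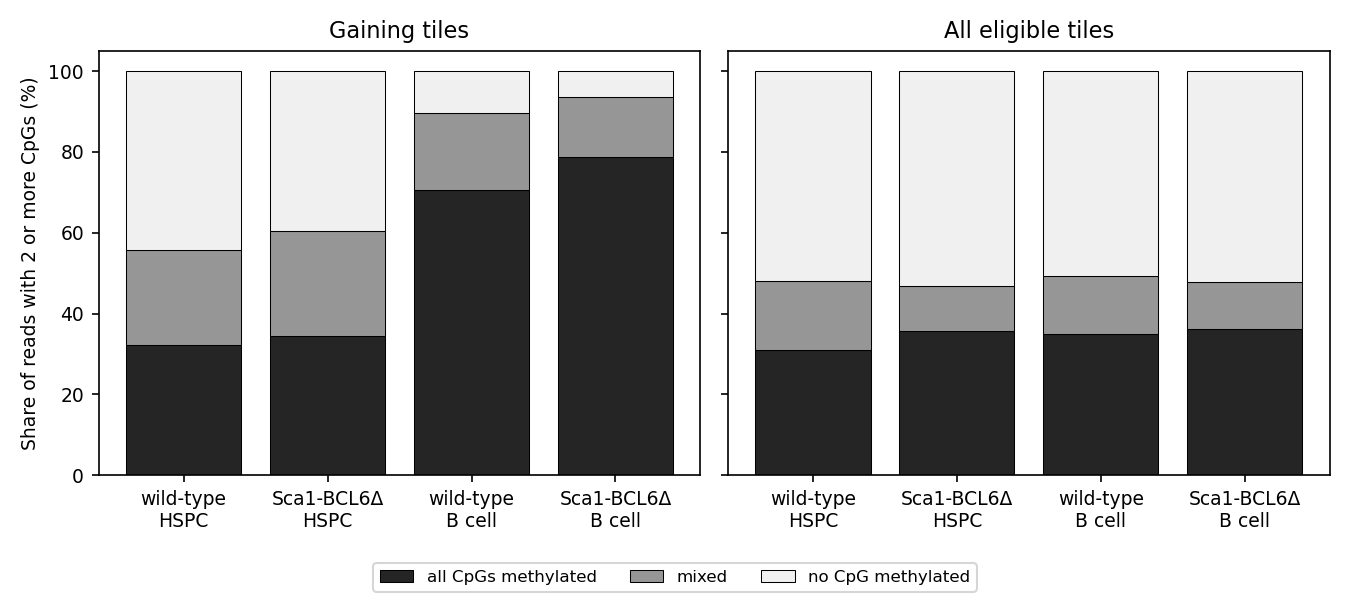
Share of reads with 2 or more CpGs (vertical axis, percent) that were methylated at every CpG (black), at some (grey) or at none (white), in the 4 libraries, for gaining tiles and for all eligible tiles. In gaining tiles the black share is 32.2 and 34.5% in HSPCs and 70.5 and 78.6% in B cells.

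Gaining tiles were spread over the genome. Each autosome held between 27 and 66 of them, from 0.702% of eligible tiles on chromosome 13 to 1.15% on chromosome 19. The median distance to the next gaining tile was 685 kb, and 126 tiles (15.2%) had another within 100 kb. Only 187 gaining tiles (22.5%) had an eligible tile next to them, so for the others the reach of the gain could not be read. Where a next tile was eligible, it seldom gained in both genotypes, though more often than next to any eligible tile. The 201 eligible tiles that lay next to a gaining tile had a median difference of 10.2 percentage points in wild-type and 2.04 in Sca1-BCL6Δ. Of them 22.9% gained 25 percentage points in wild-type, 9.45% in Sca1-BCL6Δ and 12 (5.97%) in both. Next to any eligible tile these shares were 8.17, 2.68 and 0.60%, over 31423 tiles whose median level was far lower, 21.9% in wild-type B cells against 81.6%. Without the 12 that gained in both, the 189 other neighbours had median differences of 9.85 percentage points in wild-type and 0.73 in Sca1-BCL6Δ. Of these 189, 17.99% gained 25 percentage points in wild-type and 3.7% in Sca1-BCL6Δ.

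Those 12 tiles formed 6 pairs. In 4 pairs the nearest covered CpGs on either side of the tile boundary were 15 to 67 bp apart. CpGs this close can share reads, so the tiles of such a pair need not be separate observations. The remaining pairs had gaps of 153 and 1161 bp. A pair on chromosome 6, 88066001 to 88068000, lies between the matched starts of Rpn1, an oligosaccharyltransferase subunit gene 31.5 kb away, and Gm38856, 34.4 kb away. It lies 75.9 kb upstream of the matched start of Gata2, a transcription factor required by haematopoietic stem cells. Its first tile had 36.1% methylation in HSPCs and 91.1% in B cells for wild-type, and 60% and 86.4% for Sca1-BCL6Δ. Its second tile had 51.4, 90.1, 29.4 and 90.9%. Both tiles thus ended near 90% in B cells. In HSPCs the order of the genotypes was opposite at the tiles, but the intervals of the genotypes overlapped at each. The exact conditional test described below gave an unadjusted p of 0.245 at the first tile and 0.282 at the second in HSPCs. No gaining tile lay within 5 kb of the Gata2 start itself, where the median level over 11 tiles was 37.5, 23.7, 43.2 and 13.3%.

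A pair on chromosome 8, 123018001 to 123020000, lies 5.24 and 6.24 kb downstream of the start of Gse1. Its first tile had 52.4, 86.0, 45.5 and 97.3% and its second tile 28.6, 75, 33.3 and 80%, so that the second was lower in every library. A pair on chromosome 11, 68255001 to 68257000, lies 9.37 and 10.4 kb downstream of the start of Pik3r5, a regulatory subunit gene of the phosphoinositide 3-kinase of leukocytes. Its mean levels were 36.4, 93.5, 56.6 and 96.7%. The pair on chromosome 13, 44401001 to 44403000, lies 423 kb upstream of Jarid2, which encodes a cofactor of Polycomb repressive complex 2. It had lower levels throughout, with means of 30, 63.6, 25.6 and 65.6%. The pair on chromosome 9, 112021001 to 112023000, lies 67.3 to 68.3 kb downstream of the start of Arpp21, which encodes a phosphoprotein regulated by cyclic AMP. It spans the widest of these gaps and had means of 48.8, 85.7, 61.0 and 89.2%. The sixth pair, on chromosome 16, 38636001 to 38638000, is named here after its values were seen. It had means of 23.7, 57.4, 19.6 and 60.9%.

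Few gaining tiles lay at matched gene starts. Start sites on mm9 were known for 9191 genes, those whose promoter sequence could be matched, so an unmatched gene can lie nearer than the gene named. Of 802 gaining tiles on the chromosomes with promoter sequences, 4 (0.50%) held a matched start site (Angptl8, Gm33473, Gm46560 and Mrpl3), against 8.66% of eligible tiles. Within 5 kb of a matched start lay 81 gaining tiles (10.1%), against 20.4% of eligible tiles. The median distance was 56.4 kb against 44.6 kb. Downstream of a start by less than the RefSeq length of that gene lay 21.9% of gaining and 21.9% of eligible tiles. Exons and introns could not be assigned, since the annotation used here is on another assembly. Tiles with many covered CpGs seldom gained, as given above, and the part of CpG density in these shares was not tested.

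Genes of blood cell identity were looked up from 2 lists. Among 14 genes of B cell identity 1 start was matched, that of Pax5, the transcription factor that holds B cells to their fate. No gaining tile lay within 100 kb of it, and 4 tiles within 5 kb had median levels of 34.1, 16.8, 16.3 and 16.0%. Of 14 genes of stem and progenitor cells or other lineages 8 were matched (Kit, Gata2, Meis1, Runx1, Hoxa10, Tal1, Cebpa and Flt3). None had a gaining tile within 5 kb, where 0.99% of all 9191 matched genes had one. Gata2 and Hoxa10, a homeobox factor active in stem cells, had one within 100 kb, as did 13.6% of all matched genes. With so few listed genes matched, nothing is read from these counts. The tile 74.9 kb from Hoxa10, at chromosome 6, 52109001 to 52110000, had 12.8% in HSPCs and 39.7% in B cells for wild-type, and 18.8% and 52.6% for Sca1-BCL6Δ. A nearer matched start, of 5730596B20Rik, lies 17.1 kb away. Whether the sorted cells were what their labels say could not be checked from marker expression in these data.

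The 12 tiles with the largest smaller gain of both genotypes are shown in the plot of named tiles, each labelled by its nearest matched gene. The smaller gain was greatest at chromosome 6, 30499001 to 30500000, 144 kb downstream of the start of Cep41, a centrosomal protein gene. Its 2 CpGs had 37.9% methylation in wild-type HSPCs (29 readings, interval 22.7 to 56.0%) and 35% in Sca1-BCL6Δ HSPCs (20 readings, 18.1 to 56.7%). Both B cell libraries were at 100% (24 and 18 readings). Both HSPC libraries were at about the same level there, and no unmethylated reading was found in B cells. A tile on chromosome 5, 114822001 to 114823000, lies 7.51 kb downstream of the start of Kctd10, an adaptor gene of Cullin-3 ubiquitin ligases. It had 46.8% in wild-type HSPCs (62 readings), 35% in Sca1-BCL6Δ HSPCs (20 readings) and again 100% in both B cell libraries (65 and 22 readings).

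Other tiles started lower and ended short of full methylation. On chromosome 9, the tile from 46510001 to 46511000, 373 kb from the nearest matched start, had 16.7% in HSPCs and 70.5% in B cells for wild-type, and 15.2% and 75.9% for Sca1-BCL6Δ. All 6 of its CpGs covered in all libraries were higher in B cells in both genotypes, in readings that also chose the tile. On chromosome 8, the tile from 82838001 to 82839000, 256 kb upstream of the hedgehog inhibitor gene Hhip, had 18.4, 75, 23.1 and 76.7%. Another tile on chromosome 5, 144399001 to 144400000, 15.7 kb downstream of the start of Cyth3, an exchange factor gene for ARF GTPases, had 13.6, 66.7, 6.25 and 59.1%. At these 3 tiles the genotypes lay within 8 percentage points of each other in both cell types.

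The remaining 7 had their nearest matched start 136 kb (Lncpint), 38.9 kb (Ap5z1), 32.4 kb (Gm30246), 3.9 kb (Zfp428), 25.5 kb (Nat14), 218 kb (9530052C20Rik) and 86.0 kb (Spata46) away. In wild-type HSPCs the tiles nearest to Lncpint, a long non-coding RNA gene, and Ap5z1, an adaptor protein complex gene, had no methylated reading among 15 and 10 readings, which leaves room for up to 20.4 and 27.8% by the interval. In Sca1-BCL6Δ HSPCs they had 25 and 45%. Only 1 of the 3 covered CpGs of the Lncpint tile had reads in HSPCs, and over CpGs covered in all libraries its smaller gain was 48.68 percentage points. The 10 wild-type HSPC readings of the Ap5z1 tile were 5 at each of 2 close CpGs, which can share reads. The tile near the zinc finger gene Zfp428 had 34.1, 95.6, 28.6 and 81.2%. The gain of the tile assigned to 9530052C20Rik compared different CpGs. Of its 13 covered CpGs only 2 were covered in all libraries, and neither was higher in B cells in both genotypes.

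**Figure D5:**
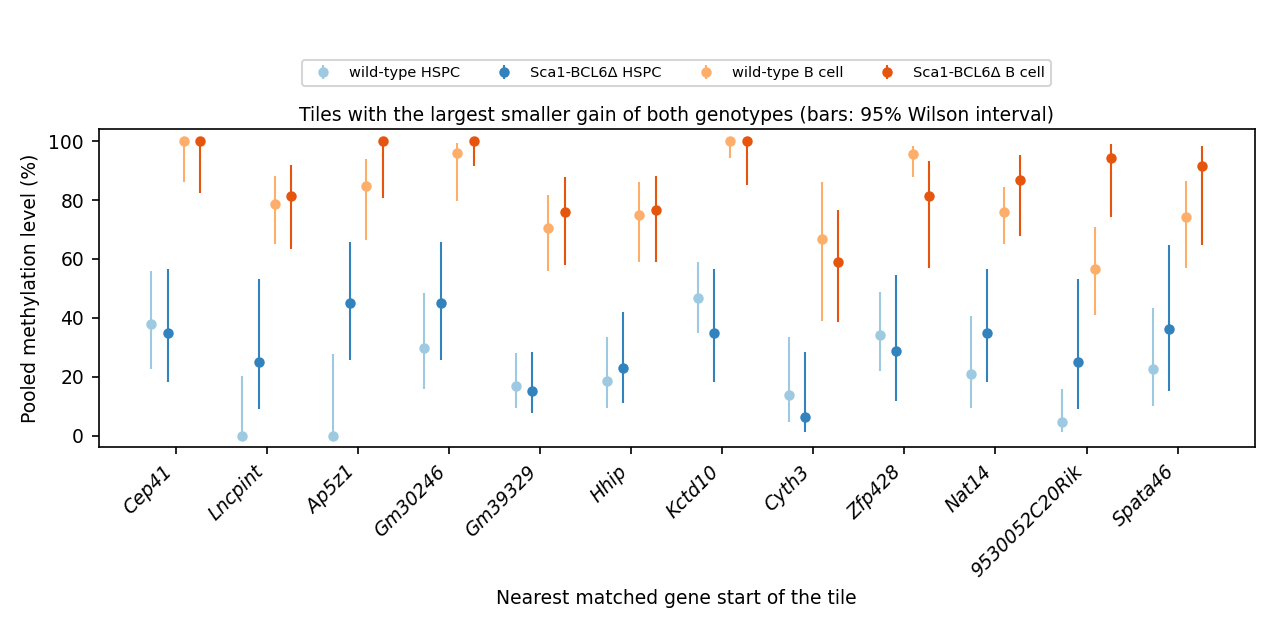
Methylation level (vertical axis, percent) of the 12 tiles with the largest smaller gain, labelled by the nearest matched gene start, in the 4 libraries. Points are levels and bars are 95% Wilson intervals, which cover counting error only. B cell points lie above the HSPC points of the same tile, as the rule requires, and bars are long because many tiles have under 30 readings in a library.

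The 6 gaining tiles with the most readings in their shallowest library are described next. Their readings were summed over 8 to 24 covered CpGs that can share reads, so more readings need not mean a more precise level. The deepest, at chromosome 17, 32259001 to 32260000, lies 43.8 kb downstream of the start of Notch3, a Notch receptor gene. In wild-type it had 37.3% in HSPCs (126 readings, interval 29.4 to 46.0%) and 64.0% in B cells (153 readings, 56.2 to 71.2%). In Sca1-BCL6Δ it had 53.3% in HSPCs (92 readings, 43.1 to 63.1%) and 78.6% in B cells (84 readings, 68.6 to 86.0%). Only 3 of its 8 CpGs covered in all libraries were higher in B cells in both. With each CpG weighted equally, its smaller gain was 0.97 percentage points.

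Next to a gene start, the tile at chromosome 7, 28042001 to 28043000, lies 0.78 kb upstream of the start of Numbl, a Numb-like adaptor gene known for restraining Notch signalling in neural progenitors. It had 4.92% in HSPCs (61 readings) and 54.3% in B cells (116 readings) for wild-type, and 53.8% (52 readings) and 92.4% (66 readings) for Sca1-BCL6Δ. All 10 of its CpGs, from position 28042335 to 28042470, were higher in B cells in both genotypes. Their readings chose the tile, and CpGs this close can share reads. Sca1-BCL6Δ was above wild-type in both cell types there, with p = 0.000951 in HSPCs (adjusted p = 0.217) and p = 0.00185 in B cells (adjusted p = 1.0) by the exact conditional test described below. Neither difference passed the adjustment.

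The tile at chromosome 3, 130921001 to 130922000, lies 53.0 kb downstream of the start of Hadh, a gene of fatty acid oxidation. This tile had nearly the same levels in both genotypes. It stood at 55.9, 84.8, 54.9 and 83.3%, with 54 to 132 readings. On chromosome 6, the tile from 38871001 to 38872000, 258 kb from the Clec2l start, had 47.2, 88.9, 67.9 and 95.5%. The tile 3.62 kb from the start of Isyna1, which encodes the enzyme that makes inositol phosphate from glucose 6-phosphate, had 58.5, 86.3, 57.0 and 87.3%. Over its 8 CpGs covered in all libraries, out of 24, the smaller gain was 3.11 percentage points, so its gain also rested on CpGs that differed between libraries. The last of the 6 is the first tile of the Arpp21 pair, with 47.5, 76.6, 53.2 and 78.4%.

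At the threshold, among tiles with a smaller gain of exactly 25 percentage points, 4 on chromosome 9 were named. The nearest 4 tiles left out had 24.96 to 24.98. Just inside, the tile at chromosome 9, 63651001 to 63652000, 45.2 kb upstream of Smad3, a signal transducer gene of TGF-beta, had 53.1, 84.1, 50 and 75%. Just outside, a tile at chromosome 6, 120252001 to 120253000, had 52.2, 77.1, 55 and 81.8%. These tiles differed by far less than the width of their counting intervals.

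The comparison of genotypes within a cell type was not used to choose the tiles, although the same reads enter both. The rule asked for higher B cell than HSPC levels in each genotype. The shares of gaining tiles given here are therefore not independent of it, and nothing is read from their distance to all tiles. For each tile, the odds of methylation were compared between the 2 libraries by an exact conditional test of a common odds ratio over CpGs more than 50 bp apart. A tile was called at an adjusted p under 0.05 (Benjamini-Hochberg over all eligible tiles) if the levels also differed by 20 percentage points or more. In B cells none of the 830 gaining tiles was called, and none of 94020 tested tiles was (0.0% in each direction), which does not show that the genotypes were alike at this depth. At an unadjusted p under 0.05 and the same difference, 11 gaining tiles (1.33%) were higher and 3 (0.361%) lower in Sca1-BCL6Δ, against 0.460% and 0.689% of all tiles. In HSPCs no gaining tile was called, against 12 higher (0.0128%) and 2 lower (0.00213%) among 94019 tiles. Unadjusted, 19 gaining tiles (2.29%) were higher and 9 (1.08%) lower, against 6.22% and 0.759% of all tiles. The smallest adjusted p among gaining tiles was 0.939 in B cells and 0.217 in HSPCs. Fisher's exact test on the summed readings, which takes the CpGs of 1 read as independent, called 4 gaining tiles (0.482%) in B cells and 9 (1.08%) in HSPCs after adjustment, at the same minimum difference. Of all eligible tiles it called 0.657% in B cells (0.302% higher and 0.355% lower) and 4.80% in HSPCs (4.0% higher and 0.799% lower). After adjustment, over both directions together, neither test thus called a larger share of gaining tiles than of all tiles. This does not hold for the unadjusted shares in B cells, and nothing is read from either, for the reason given above.

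Without a test, 62 gaining tiles (7.47%) were at least 20 percentage points higher in Sca1-BCL6Δ B cells than in wild-type B cells, and 19 (2.29%) at least that much lower. The shares over all eligible tiles were 2.3% and 2.91%. In HSPCs the shares were 16.0% higher and 7.35% lower among gaining tiles, and 22.9% and 3.65% over all eligible tiles. These shares also come from levels that the rule used, and the part of the lower depth of gaining tiles in them was not tested. The median difference, Sca1-BCL6Δ minus wild-type, was 3.08 percentage points in B cells and 4.6 in HSPCs, against 0.0 and 7.38 over all eligible tiles. In B cells 566 gaining tiles (68.2%) differed by under 10 percentage points between genotypes, against 80.01% of eligible tiles. In HSPCs 391 (47.1%) did, against 46.1%.

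The extremes of the genotype difference were tiles with few readings. The largest in B cells toward Sca1-BCL6Δ was at chromosome 2, 27994001 to 27995000, 53.6 kb upstream of Olfm1, which encodes a secreted glycoprotein of the nervous system. B cells had 37.1% in wild-type (35 readings) and 83.3% in Sca1-BCL6Δ (12 readings), with 10.5 and 58.3% in HSPCs, and an unadjusted exact p of 0.0949 in B cells. The next, 31.1 kb from Oxnad1, had 40 and 83.3% in B cells (exact p = 0.119). In the other direction, a tile 49.1 kb downstream of the start of the splicing factor gene Mbnl2 had 92.1% in wild-type B cells against 45.5% (exact p = 0.218), and one 301 kb from the ubiquitin ligase gene Rnf145 had 100 and 60% (exact p = 0.175). None of these 4 reached an unadjusted p of 0.05 in B cells. In HSPCs the Olfm1 tile had an exact p of 0.0181 (adjusted p = 0.432).

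In HSPCs the largest differences toward Sca1-BCL6Δ were at a tile 226 kb from Slc30a10, a manganese transporter gene, with 7.69% in wild-type against 70.6%, and at one 348 kb upstream of Rack1, a ribosomal scaffold protein gene, with 20 and 75%. At the Slc30a10 tile, only 2 of 8 CpGs were covered in all libraries and the exact p was 1.0. At the Rack1 tile the exact p was 0.242. Toward wild-type, the tile assigned to Txndc16 had 72.4% against 20% (exact p = 0.0217, adjusted p = 0.450) and the tile assigned to Gm15663 had 67.9% against 20% (exact p = 0.294). Their Sca1-BCL6Δ HSPC levels rested on 10 readings each, and all 4 tiles were above 69% in both B cell libraries.

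For development itself, the same exact test called 4.63% of eligible tiles higher and 0.263% lower in B cells in wild-type, and 0.0255% higher and 0.0191% lower in Sca1-BCL6Δ. These shares describe all eligible tiles, and no count is given for the gaining tiles, which this contrast chose.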

How the data were processed

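RRBS libraries of wild-type and Sca1-BCL6Δ HSPCs and B cells were compared, 1 library per condition, grouped from the labels. DNA was digested with TaqI and MspI, fragments of 40 to 350 bp were selected and 18 PCR cycles were run, per the labels' protocols. Reads were aligned with an in-house pipeline, per the submitters' methods text, whose version is not given in the sources used here. The build was mm9, per the submitters' processing notes. The deposited CpG tables gave a ratio of methylated to total read counts per CpG, and a score that equalled 1000 times the methylated share, rounded down. The deposited read tables gave the percent of methylated CpGs per read and a count of its CpGs. The tables covered 1012002 to 1414224 CpGs per library with median coverages of 4 to 9 reads.

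Methylated and total counts were summed over each tile, and a CpG missing from a library had 0 reads there. The members and gene lists were chosen with earlier results of these data known. Named tiles were the 12 with the largest smaller gain, the 4 just inside and outside the threshold, the 6 deepest, the 2 with the largest genotype difference in each direction and cell type, called tiles and up to 5 runs of neighbouring tiles. Genes were placed on mm9 by matching the spacing of at least 5 covered CpGs to RefSeq promoter sequences (GRCm38.p6), or of 3 at the offset of both neighbours. This was chosen after the files were seen, in place of an mm9 annotation. It placed 10447 promoters, and 99.7% of the matches by 5 or more CpGs had the same offset as an adjacent match. Distances are on mm9. Python 3.11.15, numpy 2.4.6, scipy 1.17.1, pandas 2.3.3 and matplotlib 3.10.9 were used. The exact test was tested on simulated data. Alternatives covered depth, threshold, CpG choice, weighting, tile position, rescaling and Fisher's exact test.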

Additional observations from a re-analysis of the deposited data

How the results depend on the processing

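The number of gaining tiles moved with the thresholds: 177 at 20 readings per library, 48 at 30 readings, 1803 at a gain of 20 percentage points, 90 at a gain of 40 and 490 with wild-type HSPC levels rescaled. It was 830 with no upper limit on reads, 800 with CpGs covered in all libraries, 828 with shifted tiles and 1006 with CpGs weighted equally. Of the 830 tiles, 723 (87.1%) remained with CpGs covered in all libraries and 520 (62.7%) with equal weights. Across these settings the median level ranged from 38.01 to 53.85% in wild-type HSPCs, 36.36 to 60.87% in Sca1-BCL6Δ HSPCs, 81.8 to 88.89% in wild-type B cells and 83.1 to 92.86% in Sca1-BCL6Δ B cells, lowest at a gain of 40 percentage points or at 30 readings and highest at a gain of 20. Fisher's exact test on summed readings called 4 gaining tiles in B cells (618 of all tiles) and 9 in HSPCs (4511 of all tiles), where the exact conditional test called 0 gaining tiles. No member was called with no minimum difference, at 20 readings per library or, in HSPCs, with rescaled counts. Of 39 named tiles 28 kept a gain of 25 percentage points in both genotypes with equal weights and 29 after rescaling, as did 33 of the 36 with enough readings at CpGs covered in all libraries. None reversed. No paired analysis was possible because each condition had 1 library. For the same reason no library could be left out. The counts of few readings limit every level of a single tile.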

Other observations

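Sex chromosomes were outside the rule. On the X chromosome 1270 tiles had at least 10 readings in every library, and 17 (1.34%) gained at least 25 percentage points in both genotypes. The gain was met there by 153 tiles in wild-type and by 311 in Sca1-BCL6Δ. The sex of the pooled mice is not given in the sources used here.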
